A study of Mus musculus with 9 samples.

Results

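The mitochondrial ribosomal protein genes were followed across 4 sorted myeloid populations of the inflamed mouse lung. Members were all genes whose single symbol on the array starts with Mrpl or Mrps and a digit, the names given to proteins first assigned to the large and the small mitochondrial ribosomal subunit. Of 18193 genes measured, 76 were members, 47 named Mrpl and 29 named Mrps. They were read by 156 probe sets, and where a gene had several, the one whose mean over the 9 arrays was highest stands for it. All 76 were tested, because no filter on low values was applied.

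The study hybridised RNA from flow-sorted lung cells to Affymetrix mouse arrays to set a population called T2M beside eosinophils, neutrophils and macrophages. All groups came from female BALB/c mice of the 4get genotype, aged 6 to 8 weeks, in which green fluorescent protein reports Il4 expression. All mice received 0.5 µg of recombinant IL-25 in 50 µL intratracheally each day for 4 days, so no group is untreated. Each array is a pool of 4 donor mice, enriched for CD11b+ cells on magnetic columns, with 400000 cells sorted and 50 ng of RNA amplified. The T2M arrays (n = 3) were sorted as GFP-positive for IL-4, IL-5rα-, F4/80+, MHCII-low, CD11b+ and Gr-1-mid. The Eosinophils arrays (n = 2) were sorted as GFP-negative, IL-5rα+, F4/80-, MHCII-low, CD11b+ and Gr-1-high. The Macrophages arrays (n = 2) were GFP-negative, IL-5rα-, F4/80+, MHCII+, CD11b+ and Gr-1-, and the Neutrophils arrays (n = 2) were GFP-negative, IL-5rα-, F4/80-, MHCII-low, CD11b+ and Gr-1+. All populations were defined by surface gates on a lung digest, which limits each as a model of a cell type. The spread between arrays of a label is a spread between pools only where each array is a separate pool.

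Mitochondrial ribosomes translate the few proteins encoded by mitochondrial DNA, all of them subunits of the respiratory chain and ATP synthase. Their ribosomal RNAs come from the mitochondrial genome, whereas all their proteins are encoded in the nucleus, made in the cytosol and imported. Some of these proteins descend from bacterial ribosomal proteins and others are found only in mitochondria. Macrophages vary their use of oxidative phosphorylation with their activation state, and mature neutrophils are known for few mitochondria and a mainly glycolytic metabolism.

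Nuclear genes for mitochondrial proteins often carry sites for ETS-family factors such as the GA-binding protein, for nuclear respiratory factor 1 (NRF1) and for YY1 in their proximal promoters. RefSeq promoter windows of mouse assembly GRCm38.p6, taken as the 250 bases upstream of a start, were matched for 67 members, with 73 windows. The ETS core CCGGAAG was found on either strand in 17 of the 73 windows (23.3%) and in 6.91% of all 32851 windows. The palindromic core consensus of NRF1 was in 3 member windows (4.11%) against 0.782% of all, and the YY1 consensus in 1 (1.37%) against 0.207%. The YY1 consensus begins with the letters that end the ETS core, so those matches can overlap, and each match is a string of letters, not a shown binding site. Member windows were richer in G and C, with a median of 58.4% against 52.4% over all windows, and the words are themselves rich in G and C. The 5 windows below belong to members that the results turn on, with and without a match. Mrps18a, Mrps26, Mrpl58 and Mrpl12 were low on the T2M and Eosinophils arrays, and Mrpl33 was the member that was highest on the Eosinophils arrays. Each runs 5′ to 3′ on the gene's strand and ends at the base before the start, with the matched ETS core in capitals (in Mrps26 its reverse complement). The match begins 26 bases before the start in Mrps18a, 14 in Mrps26 and 17 in Mrpl58. They lie at chr17:46110754-46111003, chr2:130563507-130563756, chr11:115403502-115403751, chr11:120484387-120484636 and chr5:31613701-31613950, all on the plus strand.
Mrps18a: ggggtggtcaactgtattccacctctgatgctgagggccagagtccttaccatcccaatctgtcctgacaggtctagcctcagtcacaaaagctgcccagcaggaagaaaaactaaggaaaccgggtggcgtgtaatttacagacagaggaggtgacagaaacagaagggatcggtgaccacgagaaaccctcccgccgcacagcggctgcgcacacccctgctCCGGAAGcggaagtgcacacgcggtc
Mrps26: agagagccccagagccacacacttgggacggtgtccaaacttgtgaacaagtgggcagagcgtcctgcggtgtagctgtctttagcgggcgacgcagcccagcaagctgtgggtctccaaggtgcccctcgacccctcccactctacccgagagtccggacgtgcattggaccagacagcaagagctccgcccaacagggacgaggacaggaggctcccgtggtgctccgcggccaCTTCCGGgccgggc
Mrpl58: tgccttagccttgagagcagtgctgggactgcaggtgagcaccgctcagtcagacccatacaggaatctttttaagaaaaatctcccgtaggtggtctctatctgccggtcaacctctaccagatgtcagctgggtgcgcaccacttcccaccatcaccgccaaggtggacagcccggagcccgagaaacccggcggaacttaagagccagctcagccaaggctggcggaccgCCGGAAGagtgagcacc
Mrpl12: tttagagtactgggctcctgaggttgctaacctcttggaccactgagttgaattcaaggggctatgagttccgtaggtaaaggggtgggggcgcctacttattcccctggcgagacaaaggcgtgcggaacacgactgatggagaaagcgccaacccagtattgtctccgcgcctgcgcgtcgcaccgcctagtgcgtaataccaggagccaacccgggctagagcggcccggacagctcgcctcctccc
Mrpl33: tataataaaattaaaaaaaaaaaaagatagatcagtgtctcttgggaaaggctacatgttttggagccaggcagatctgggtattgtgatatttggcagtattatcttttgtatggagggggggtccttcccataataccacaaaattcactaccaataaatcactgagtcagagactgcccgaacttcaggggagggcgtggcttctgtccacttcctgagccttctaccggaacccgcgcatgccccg
The Mrpl12 and Mrpl33 windows held none of the 3 words, nor did those of Mrpl23 and Mrps14, which were also low on the T2M and Eosinophils arrays. This says only that these letters are not in these windows.

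The labels were checked against marker genes, and some arrays went against them. Of 11 neutrophil genes such as Csf3r, Cxcr2, Lcn2 and Mmp8, the median log2 expression value on an array was 11.57 to 11.71 on the Eosinophils arrays but only 7.94 to 8.13 on the Neutrophils arrays. It was 7.51 to 8.94 on the T2M arrays and 6.36 to 6.71 on the Macrophages arrays. Of 8 eosinophil genes such as Epx, Prg2, Ccr3 and Il5ra, the median was 7.88 to 8.97 on the T2M arrays, 5.03 to 5.73 on the Eosinophils arrays, 3.94 to 6.50 on the Neutrophils arrays and 4.51 to 4.52 on the Macrophages arrays. The median of 11 macrophage genes was higher on the Neutrophils arrays (10.43 to 10.73) than on the Macrophages arrays (8.95 to 9.09). It was 9.45 to 10.23 on the T2M arrays and 8.59 to 9.05 on the Eosinophils arrays. Label names are therefore used here only as names of arrays. The correlation between replicate arrays over all genes was 0.995 for the 2 Macrophages arrays and 0.922 to 0.974 for the other pairs. Whether the 2 Macrophages arrays are 2 pools or repeat hybridisations of 1 RNA is not known here. They were therefore also counted as 1 sample in an alternative fit.

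Levels of the members split the 4 labels into a lower and a higher pair. On the T2M arrays the median log2 expression value of the 76 members was 7.45, 7.37 and 7.04, and on the Eosinophils arrays 7.10 and 7.01. It was 7.92 and 8.74 on the Neutrophils arrays and 8.75 and 8.49 on the Macrophages arrays. No T2M or Eosinophils array reached the lowest array of the other labels, while the median of all genes lay between 6.03 and 6.22 on every array. The order of single members ran the same way. The highest mean was on the Macrophages arrays for 62 members, on the Neutrophils arrays for 11, on the T2M arrays for 2 (Mrps9 and Mrpl39) and on the Eosinophils arrays for 1 (Mrpl33). The lowest mean was on the Eosinophils arrays for 49 members, on the T2M arrays for 24, on the Neutrophils arrays for 3 and on the Macrophages arrays for 0. For 64 members both the Macrophages and the Neutrophils means stood above the T2M and the Eosinophils means. These orders were not counted over all genes, so how unusual the counts are cannot be told. In bulk samples, fewer cells with a transcript and less of it per cell cannot be told apart.

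**Figure D1:**
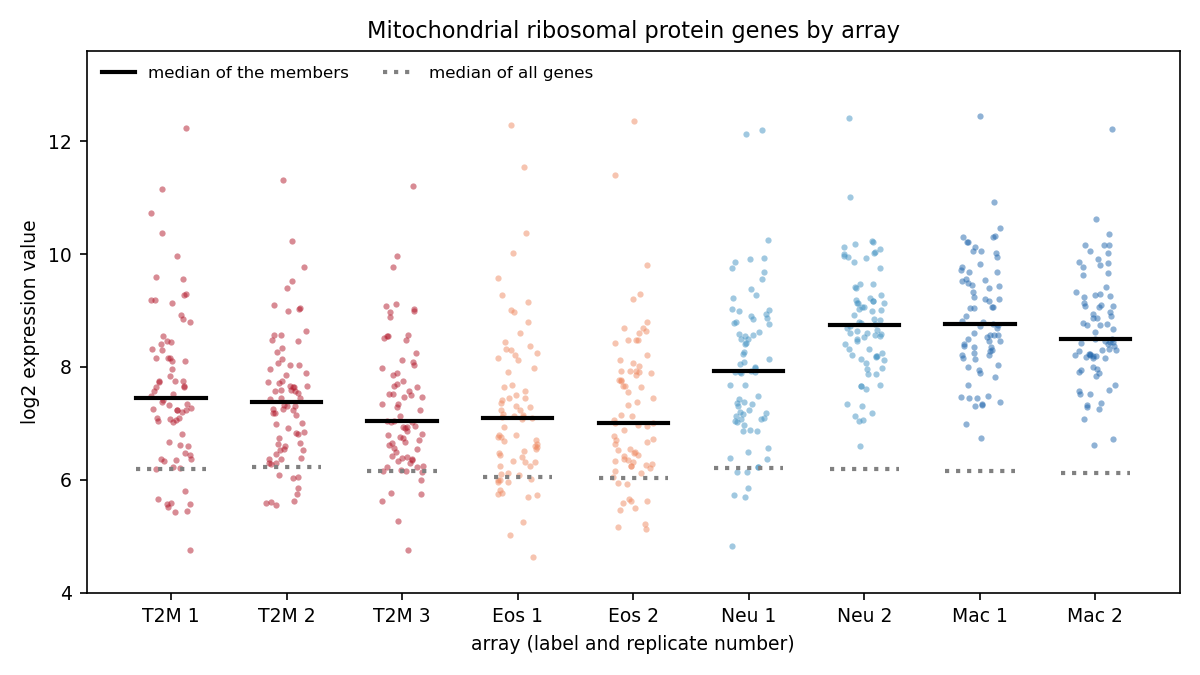
Log2 expression values of the 76 mitochondrial ribosomal protein genes on each of the 9 arrays, grouped by label (Eos, Eosinophils; Neu, Neutrophils; Mac, Macrophages), with the member median of each array. The 5 T2M and Eosinophils arrays have member medians of 7.01 to 7.45, and the 4 others of 7.92 to 8.75.

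Against the Macrophages arrays, the T2M arrays were lower in nearly the whole family. The T2M mean was lower for 74 of the 76 members, with a median log2 difference of -1.24 (quartiles -1.90 and -0.85) where the median of all genes was 0.18. Of all 18193 genes, 7650 had a lower T2M mean. The member values are those of the 1 probe set kept per gene. The 80 other probe sets of the members had a median of -0.44, and 12 of them were called lower with each probe set tested on its own. In that fit 9.24% of all genes were called lower by their kept probe set. The share over the other probe sets of all genes was not counted. limma called 32 members lower and 0 higher at an adjusted p under 0.05, and 10.6% of all genes were called lower and 6.53% higher in this comparison. With the lowest 40 percent of genes left out, the median of the remaining genes was -0.28. In that fit 35 members and 16.1% of the remaining genes were called lower. The arrays of the 2 labels did not overlap for 66 members, all of them lower in T2M, against 27.7% of all genes lower and 40.7% higher in this way. At an unadjusted p under 0.05 there were 56 members, against 36.4% of all genes. The number of calls depended on single arrays. Without T2M replicate 3 it was 17, where 6.04% of all genes were called lower instead of 10.6%. Most or all calls were lost in fits with 1 Macrophages sample, where the share of all genes called lower also fell. The median difference of the members was -1.19 without Macrophages replicate 1 and -1.32 without replicate 2. The median difference stayed between -1.39 and -1.14 when any 1 array was left out. On the same arrays all 8 eosinophil markers were called higher in T2M, as were 4 of 11 neutrophil and 4 of 11 macrophage markers, with 2 macrophage markers lower. Of 8 genes each, 3 lung structural markers (list median 2.27), 3 alveolar macrophage, 2 lymphoid and 2 mast cell and basophil markers were also called higher, and 1 of the last list lower. The part of cell composition in the result was not tested.

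**Figure D2:**
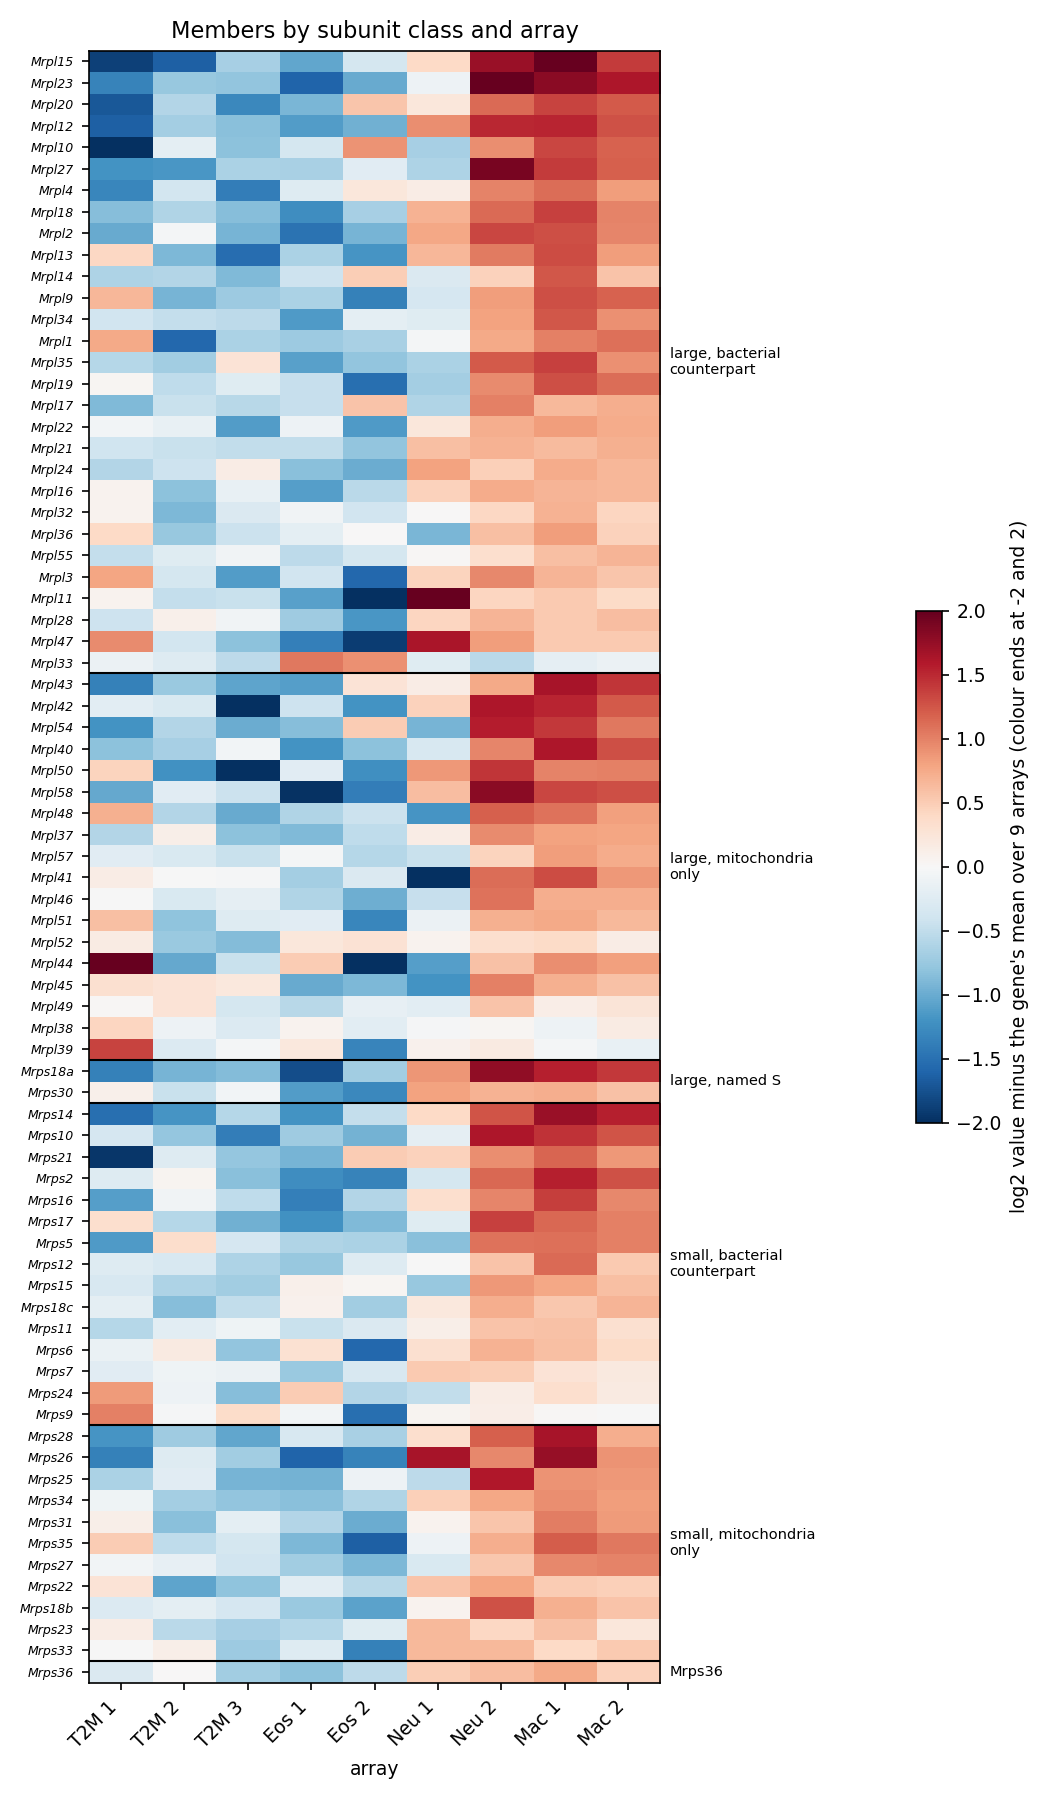
Log2 expression value of each of the 76 members minus that gene's own mean over the 9 arrays, 1 line per gene and 1 column per array (Eos, Eosinophils; Neu, Neutrophils; Mac, Macrophages), ordered within structural class by the T2M minus Macrophages difference, with colours ending at -2 and 2. Most lines are below their mean on the T2M and Eosinophils arrays and above it on the Macrophages arrays, and Mrpl33 shows the opposite on the Eosinophils arrays.

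The difference was widest for Mrpl15, a large-subunit protein with a bacterial counterpart. Its log2 values were 5.81, 6.05 and 7.03 on the T2M arrays, 6.64 and 7.33 on the Eosinophils arrays, 8.08 and 9.41 on the Neutrophils arrays and 9.72 and 9.07 on the Macrophages arrays. Every T2M and Eosinophils array was thus below every array of the other labels. The T2M minus Macrophages difference was -3.10 (SE 0.50, 8.57-fold, adjusted p = 0.006319). The 8 probe sets of Mrpl15 gave differences from -3.10 to -0.19, and their average gave -1.50. Mrps14, a small-subunit protein of bacterial origin, had values of 7.09, 7.42 and 8.03 on the T2M arrays and 10.33 and 10.16 on the Macrophages arrays. The groups stood far apart on this probe set, with a difference of -2.73 (SE 0.38, 6.65-fold, adjusted p = 0.003606), but the 2 other Mrps14 probe sets differed by only -0.35 and -0.37 and the average of all was -1.15.

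Mrpl23, whose bacterial counterpart lies at the exit of the peptide tunnel, was at 6.67, 7.26 and 7.23 on the T2M arrays and 9.82 and 9.64 on the Macrophages arrays (difference -2.67, SE 0.58, adjusted p = 0.01872). Mrpl43, a large-subunit protein found only in mitochondria, was at 7.06, 7.67 and 7.35 against 10.06 and 9.84 (difference -2.59, SE 0.41, adjusted p = 0.005953). Both genes were separated on all of these arrays. Mrps18a was at 5.67, 6.09 and 6.16 on the T2M arrays, 5.25 and 6.33 on the Eosinophils arrays, 7.91 and 8.79 on the Neutrophils arrays and 8.57 and 8.44 on the Macrophages arrays. Its difference was -2.54 (SE 0.31, 5.80-fold, adjusted p = 0.004934), and it is 1 of the windows with an ETS core printed above. Without either Macrophages array the calls of Mrpl43 and Mrps18a against the Macrophages label were lost, and their difference still lay between -2.74 and -2.27 over all alternatives.

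Mrpl12, a protein of the stalk that contacts translation factors, was at 5.58, 6.53 and 6.37 on the T2M arrays, 6.09 and 6.25 on the Eosinophils arrays, 8.15 and 8.72 on the Neutrophils arrays and 8.74 and 8.49 on the Macrophages arrays. Its 5 lower and 4 higher arrays were separated by more than the spread within either set. The T2M minus Macrophages difference was -2.45 (SE 0.33, 5.48-fold, adjusted p = 0.003061), and T2M and Eosinophils differed by -0.01. Other members called lower in T2M than in Macrophages included Mrpl20 by -2.48, Mrpl27 by -2.29, Mrps28 by -2.16, Mrps26 by -2.09 and Mrpl18 by -1.94. The smallest called difference was that of Mrpl55 at -0.90.

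**Figure D3:**
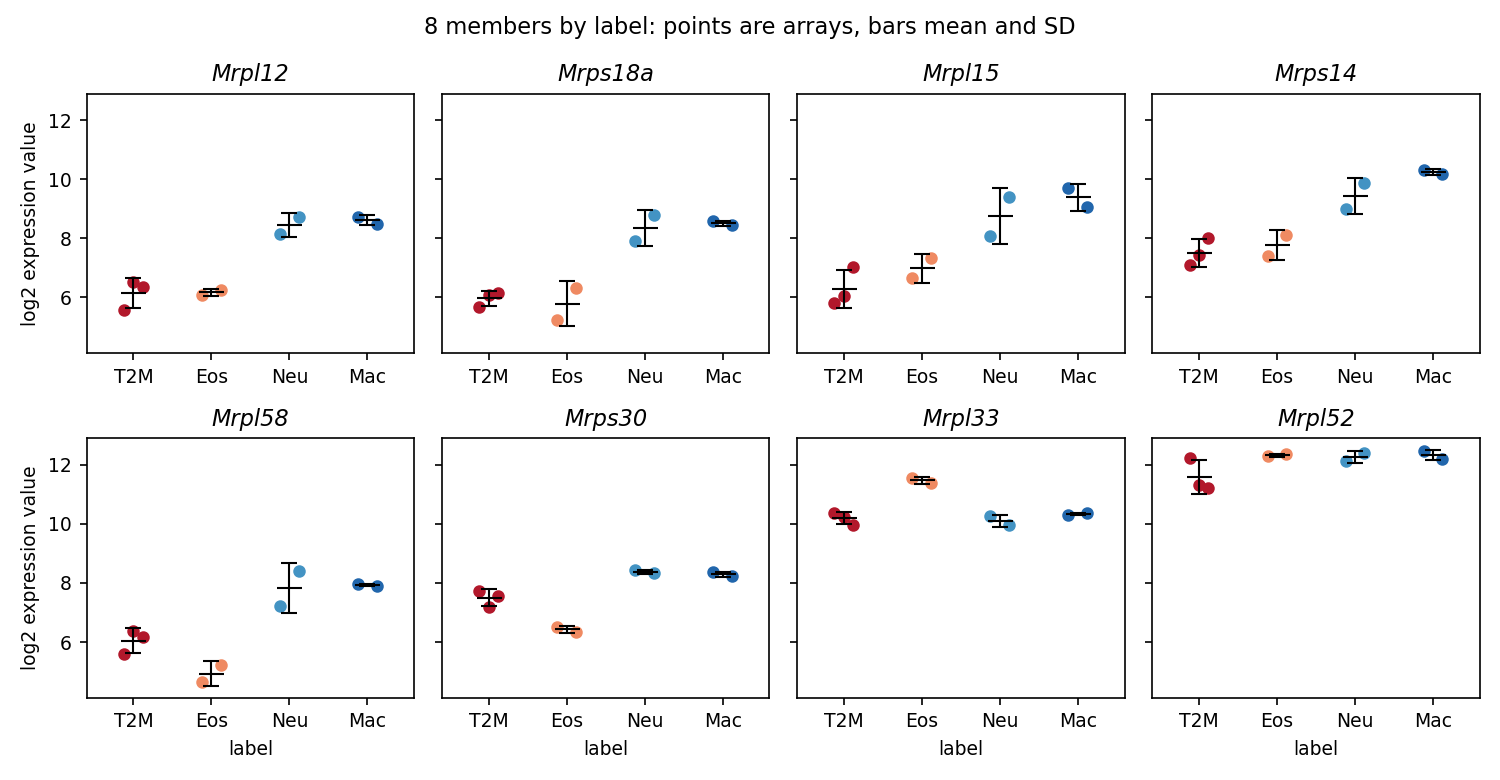
Log2 expression values of 8 members (Mrpl12, Mrps18a, Mrpl15, Mrps14, Mrpl58, Mrps30, Mrpl33 and Mrpl52) by label (Eos, Eosinophils; Neu, Neutrophils; Mac, Macrophages), with points for arrays and bars for the mean and SD of 3 T2M arrays or 2 arrays of another label. Mrpl12 and Mrps18a separate T2M and Eosinophils from the other labels, Mrps30 is lowest and Mrpl33 highest on the Eosinophils arrays, and Mrpl52 overlaps between labels.

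A smaller number of members passed the test between T2M and Neutrophils. The T2M mean was lower for 68 members, with a median difference of -0.88 (quartiles -1.52 and -0.56) against -0.03 over all genes. It was lower for 9651 of all 18193 genes. The median of the 80 other probe sets was -0.29, with 1 called lower where each probe set was tested on its own. In that fit 1.06% of all genes were called lower by their kept probe set. limma called 9 members lower and 0 higher, where 1.57% of all genes were called lower and 1.25% higher. With the lowest 40 percent of genes left out, the median of the remaining genes was -0.11. In that fit 10 members and 2.6% of the remaining genes were called lower. For 42 members every T2M array was below both Neutrophils arrays (15.1% of all genes), and 37 members had an unadjusted p under 0.05 (16.2% of all genes). The 9 were Mrpl15, Mrps18a, Mrpl12, Mrps26, Mrps14, Mrps28, Mrpl2, Mrpl18 and Mrpl21. Mrps18a differed by -2.38 (SE 0.31, adjusted p = 0.02275), Mrpl12 by -2.28 (SE 0.33, adjusted p = 0.01622) and Mrpl15 by -2.45 (SE 0.50, adjusted p = 0.04546). As the average of its probe sets Mrpl15 differed by -0.98 and was not called, and Mrps14 (-1.91, adjusted p = 0.04179) by -0.84, also uncalled. With 1 array left out, the calls of Mrpl15 and Mrps14 were each kept in 1 of 9 fits. Mrps26, a small-subunit protein found only in mitochondria, was at 6.22, 7.31 and 6.87 on the T2M arrays, 5.97 and 6.24 on the Eosinophils arrays and 9.22 and 8.53 on the Neutrophils arrays. It had a difference of -2.07 (SE 0.40, adjusted p = 0.03864), or -0.98 as the average of its probe sets, which was not called. Mrpl21 differed by only -1.09 but with an SE of 0.20, its arrays being 7.76, 7.72 and 7.67 against 8.76 and 8.85.

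This count depended on single arrays. It was 0 without T2M replicate 3 (0.258% of all genes called lower), 2 without T2M replicate 2 (0.687%) and 8 without T2M replicate 1 (1.67%). It also changed in fits that left 1 array in another label, as did the share of all genes. When only the arrays of the 2 labels were fitted, the count was 0, as it was over all genes. Neutrophils replicate 1 was below replicate 2 for 67 of the 76 members, with a median difference of -0.76 where all genes had one of 0.09. The median T2M minus Neutrophils difference was -1.24 without replicate 1 and -0.50 without replicate 2. Eosinophil markers were called higher in T2M for 4 of 8 genes and macrophage markers lower for 3 of 11, and 1 of 8 structural, 1 of 8 alveolar macrophage and 1 of 8 mast cell and basophil markers were called higher. Their part in the result was not tested.

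**Figure D4:**
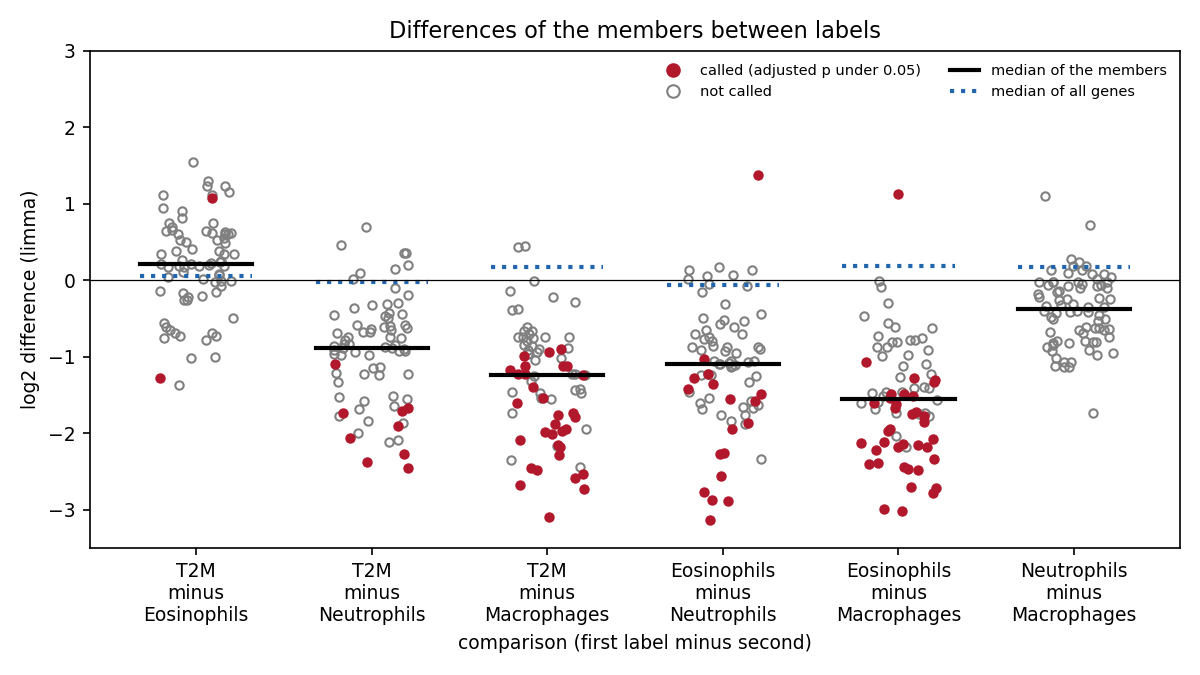
Log2 differences of the 76 members in each of the 6 comparisons between labels (Eos, Eosinophils; Neu, Neutrophils; Mac, Macrophages), 1 point per member, beside the median of all genes. The member medians are -1.24 for T2M minus Macrophages, -0.88 for T2M minus Neutrophils, 0.22 for T2M minus Eosinophils, -1.56 for Eosinophils minus Macrophages, -1.10 for Eosinophils minus Neutrophils and -0.37 for Neutrophils minus Macrophages.

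T2M and Eosinophils arrays differed little in this family. The T2M mean was higher for 51 members and lower for 25, with a median difference of 0.22 against 0.06 over all genes. It was higher for 10307 of all genes and lower for 7886. limma called 1 member higher, Mrps30, and 1 lower, Mrpl33, among 1.57% of all genes called higher and 2.89% called lower. The arrays did not overlap for 16 members higher in T2M (19.4% of all genes) and 6 lower (14.0%), and 10 members had an unadjusted p under 0.05 (17.1% of all genes). A call that was not made does not show that the levels were alike, since the median SE of a member was 0.41. In the same comparison 5 of 8 eosinophil markers were called higher in T2M and 7 of 11 neutrophil markers lower, with 2 of 11 macrophage and 1 of 8 structural markers higher and 1 of 8 lymphoid markers lower. Their part in the result was not tested.

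Mrpl33, a small large-subunit protein of bacterial origin, ran against most of the family. Its log2 values were 10.37, 10.24 and 9.96 on the T2M arrays, 11.54 and 11.39 on the Eosinophils arrays, 10.25 and 9.95 on the Neutrophils arrays and 10.31 and 10.36 on the Macrophages arrays. Only the Eosinophils arrays stood apart, above all others, which lay between 9.95 and 10.37. The Eosinophils arrays were higher by 1.37 (SE 0.24, adjusted p = 0.01439) than the Neutrophils and by 1.13 (adjusted p = 0.0163) than the Macrophages arrays, and T2M was lower than Eosinophils by -1.28 (SE 0.22, 2.42-fold, adjusted p = 0.01911). The second Mrpl33 probe set gave -0.63 for T2M minus Eosinophils and 1.58 for Eosinophils minus Macrophages. The T2M call was kept in 3 of the 9 fits that each left out 1 array, where the difference was -1.37 to -1.16.

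Mrps30, named for the small subunit but placed in the large one by structure, was at 7.74, 7.19 and 7.57 on the T2M arrays, 6.51 and 6.34 on the Eosinophils arrays, 8.43 and 8.32 on the Neutrophils arrays and 8.35 and 8.22 on the Macrophages arrays. The 3 T2M arrays lay between the Eosinophils arrays below and the other arrays above, with no overlap. T2M exceeded Eosinophils by 1.07 (SE 0.23, adjusted p = 0.04176), and Eosinophils fell short of Neutrophils by -1.95 (adjusted p = 0.004543) and of Macrophages by -1.86 (adjusted p = 0.002427). The T2M call was kept in 2 of the 9 fits that left out 1 array, both without a Neutrophils array. The difference itself was 0.95 to 1.23 over those fits. The largest uncalled T2M minus Eosinophils differences were those of Mrpl47 (1.55), Mrpl11 (1.29) and Mrps9 (1.23) above and of Mrpl10 (-1.37), Mrpl20 (-1.01) and Mrpl4 (-1.01) below.

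The Eosinophils arrays were as far below the Macrophages arrays as the T2M arrays were, or farther. Their mean was lower for 75 members, and for 7500 of all 18193 genes. The median difference of the members was -1.56 (-0.77 over the 80 other probe sets). limma called 36 lower and 1, Mrpl33, higher, where 11.5% of all genes were called lower and 5.89% higher. The median of all genes was 0.18. With the lowest 40 percent of genes left out it was -0.23, and 17.8% of the remaining genes were called lower. The arrays did not overlap for 71 members lower and 1 higher (31.7% and 46.1% of all genes). Mrpl58, a peptidyl-tRNA hydrolase that frees stalled mitochondrial ribosomes, was at 4.64 and 5.23 on the Eosinophils arrays, 5.58, 6.38 and 6.18 on the T2M arrays, 7.23 and 8.41 on the Neutrophils arrays and 7.95 and 7.91 on the Macrophages arrays. The labels were ordered without overlap from Eosinophils to T2M to the other two. The Eosinophils minus Macrophages difference was -3.00 (SE 0.44, adjusted p = 0.003105), but its other probe set differed by 0.08 and the average of both by -1.46. Mrpl23 differed by -3.02 (adjusted p = 0.01474), Mrps26 by -2.79 (adjusted p = 0.004451; -1.17 as the average of its probe sets) and Mrps18a by -2.72 (adjusted p = 0.004157). The calls of Mrpl58 and Mrps18a stood in every alternative fitted. Fits with 1 Macrophages or 1 Eosinophils sample called fewer members lower, and a smaller share of all genes. The median difference stayed between -1.69 and -1.50 when any 1 array was left out. Of 11 neutrophil markers 10 were called higher on the Eosinophils arrays here, and the part of cell composition was not tested.

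Against the Neutrophils arrays, the Eosinophils arrays had a lower mean for 69 members, and for 10174 of all 18193 genes. The median difference of the members was -1.10 (-0.38 over the 80 other probe sets). limma called 17 lower and 1 higher, where 4.33% of all genes were called lower and 3.55% higher, and 50 members were lower without overlap (23.7% of all genes). The median of all genes was -0.07. With the lowest 40 percent of genes left out it was -0.14, and 20 members and 8.13% of the remaining genes were called lower. Mrpl11, of the factor-binding region at the base of the stalk, had the widest difference at -3.13 (SE 0.66, adjusted p = 0.02581). Its Neutrophils arrays were 12.20 and 9.96 and its Eosinophils arrays 8.44 and 7.45, so that 1 Neutrophils array set much of that width: the difference was -2.01 without it. Mrpl58 differed by -2.89 (adjusted p = 0.007703), Mrpl47 by -2.87 (adjusted p = 0.01906; -1.30 as the average of its probe sets) and Mrps26 by -2.77 (adjusted p = 0.009398; -1.30 as the average). With only the arrays of the 2 labels 1 member was called lower, and 0.401% of all genes. The number of calls also changed in fits that left 1 array in a label, as did the share of all genes. The median difference was -1.53 without Neutrophils replicate 1 and -0.68 without replicate 2. Of 11 neutrophil markers 8 were called higher on the Eosinophils arrays, and their part was not tested.

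No member was called between the Neutrophils and the Macrophages arrays. limma called 0 of 76 in either direction, where 1.13% of all genes were called each way, and 4 members had an unadjusted p under 0.05 (18.6% of all genes). The Neutrophils mean was lower for 63 members with a median difference of -0.37 against 0.17 over all genes. It was lower for 7301 of all 18193 genes. With the lowest 40 percent of genes left out, the median of the remaining genes was -0.13. The arrays did not overlap for 22 members lower (23.1% of all genes) and 6 higher (36.8%). Without Neutrophils replicate 1 the median difference was 0.02, and without replicate 2 it was -0.78. In the latter fit some members were called lower, as was a larger share of all genes. The result therefore turned on which of the 2 Neutrophils arrays was used.

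By structure, 49 members belong to the large subunit, 26 to the small subunit, and Mrps36 has been reassigned to the oxoglutarate dehydrogenase complex. Both subunits were lower. In T2M minus Macrophages 19 of 49 large-subunit members were called lower with a median of -1.25, and 12 of 26 small-subunit members with a median of -1.24. All counts for this comparison stand beside 10.6% of all genes called lower. By the classes used here, 13 of 29 large-subunit proteins with bacterial counterparts (median -1.47) and 5 of 18 found only in mitochondria (-1.08) were called lower. In the small subunit 7 of 15 proteins classed with bacterial counterparts (-1.23) and 5 of the 11 others (-1.24) were called lower. Mrps18b was counted with these 11. Mrps36 was also called, by -0.94 (adjusted p = 0.04617). In Eosinophils minus Macrophages the same 4 classes had 16, 4, 6 and 7 members called lower, where 11.5% of all genes were. In T2M minus Neutrophils they had 5, 0, 1 and 2, where 1.57% of all genes were called lower. Differences between the classes were not tested. The 17 members with an ETS core in the promoter window had 10 called lower in T2M minus Macrophages with a median of -1.32, and the 50 with a window but no core had 18 with a median of -1.08. This is a description, and that difference was not tested either.

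The Mrps18 paralogs share a name but not a place in the ribosome: Mrps18a sits in the large subunit and Mrps18b and Mrps18c in the small one. Mrps18a had the widest separation, given above. Mrps18b was 7.59 ± 0.07 (SD, n = 3) on the T2M arrays, 6.95 ± 0.24 (n = 2) on the Eosinophils, 8.53 ± 0.85 (n = 2) on the Neutrophils and 8.49 ± 0.10 (n = 2) on the Macrophages arrays. Its T2M minus Macrophages difference of -0.90 was not called (adjusted p = 0.09953), whereas Eosinophils were lower than Macrophages by -1.54 (adjusted p = 0.02563) and than Neutrophils by -1.58 (adjusted p = 0.03958). Mrps18c was 8.97 ± 0.33 (SD, n = 3), 9.18 ± 0.56 (n = 2), 9.95 ± 0.37 (n = 2) and 10.09 ± 0.10 (n = 2) in the same order. The T2M arrays were called lower than the Macrophages arrays, by -1.12 (adjusted p = 0.04751), and not in Eosinophils, by -0.91 (adjusted p = 0.115). Each paralog thus had its mean on the Macrophages arrays above those on the T2M and Eosinophils arrays.

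A total of 46 members were called in at least 1 comparison and 30 in none. The share of all genes called in at least 1 comparison was not counted, so whether 46 is many cannot be told. Mrpl52, a large-subunit protein found only in mitochondria, was called in none, with values of 12.23, 11.32 and 11.20 on the T2M arrays and 12.13 to 12.45 on the 4 Neutrophils and Macrophages arrays. Mrps9 (8.63 ± 0.52, n = 3) and Mrpl39 (10.15 ± 0.88, n = 3) had their highest means on the T2M arrays, each 0.44 above the Macrophages mean and uncalled. Mrps9 turned to -0.10 with its probe sets averaged and Mrpl39 to -0.07 without T2M replicate 1. Mrpl42 (-2.44, adjusted p = 0.05383), Mrpl10 (-2.35, adjusted p = 0.05068) and Mrpl54 (-2.16, adjusted p = 0.06357) were wide but missed the threshold against Macrophages. The Mrpl42 arrays were 9.18, 9.10 and 6.70 in T2M against 10.92 and 10.63 in Macrophages, with 1 T2M array far below the others. In T2M minus Neutrophils the largest uncalled differences were those of Mrpl41 (0.69), Mrpl44 (0.46) and Mrps9 (0.36) above and Mrpl42 (-2.11) and Mrpl50 (-2.09), followed by Mrpl23, below. Mrpl41 was 6.56 on one Neutrophils array and 10.12 on the other, and its difference was -1.09 without the lower one.

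Genes that act with the mitochondrial ribosome were read in 6 lists with 83 measured genes. In T2M minus Macrophages 16 of them were called lower and 1 higher, where 10.6% of all genes were called lower and 6.53% higher, the shares against which each list's count is to be read. Tufm, the mitochondrial elongation factor Tu, was at 6.64, 6.87 and 6.39 on the T2M arrays, 6.30 and 6.04 on the Eosinophils arrays, 8.32 and 8.61 on the Neutrophils arrays and 8.57 and 8.53 on the Macrophages arrays. It split the arrays as Mrpl12 did, with a T2M minus Macrophages difference of -1.91 (SE 0.23, adjusted p = 0.002024) that was called in every alternative, and a T2M minus Neutrophils difference of -1.83 (adjusted p = 0.01174). Of 12 translation factors and insertases, 3 were called lower in T2M than in Macrophages: Tufm, Oxa1l, which inserts new chains into the inner membrane (-2.41, adjusted p = 0.003308; -1.60 as the average), and the elongation factor Guf1 (-1.02, adjusted p = 0.02133; uncalled as the average of its probe sets). Of 25 assembly genes 6 were called lower, among them Mpv17l2 (-2.38), the pseudouridine synthase Rpusd4 (-1.74), Ngrn (-1.55), Rbfa (-1.38), the GTPase Noa1 (-1.23) and Spg7 (-1.17; -0.35 and uncalled as the average of its probe sets), with a list median of -0.71.

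Of 4 mitochondrial ribosomal proteins under other names, Chchd1 was called, with a T2M minus Macrophages difference of -1.89 (adjusted p = 0.0236). Of 16 genes of mitochondrial transcription and RNA handling, Tfam, which packages and transcribes mitochondrial DNA, was called lower by -2.16 (adjusted p = 0.008184; -1.34 as the average of its probe sets) and the helicase Supv3l1 by -1.49 (-0.74 and uncalled as the average of its probe sets). Among 10 regulators of mitochondrial biogenesis, Nrf1 (-1.41, adjusted p = 0.02986; -0.23 as the average of its probe sets) and Pprc1 (-1.14) were called lower. Gabpb1, the partner subunit of the ETS factor Gabpa, was called higher by 1.79 (adjusted p = 0.02593). It was uncalled as the average of its probe sets, and also when any 1 of the T2M arrays was left out. Gabpb1 was at 8.67, 8.26 and 8.46 on the T2M arrays, 10.24 and 9.42 on the Eosinophils arrays, 6.24 and 7.67 on the Neutrophils arrays and 6.67 and 6.69 on the Macrophages arrays, the reverse of the order of most members. Of the 17 calls against Macrophages in the 6 lists, only that of Tufm was kept without either Macrophages array. The Gabpb1 difference was 1.19 to 2.12 over all alternatives.

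Of 16 mitochondrial tRNA synthetases, Hars2 (-1.58) and Cars2 (-1.16) were called lower in T2M than in Macrophages, a share of 12.5% against 10.6% of all genes, with a list median of -0.19. Nars2, the mitochondrial asparaginyl-tRNA synthetase, stood apart from the others. It was at 6.42, 6.46 and 6.42 on the T2M arrays, 9.26 and 9.18 on the Eosinophils arrays, 7.27 and 6.84 on the Neutrophils arrays and 5.75 and 5.80 on the Macrophages arrays. The arrays of each label were separate from those of every other. The T2M minus Eosinophils difference was -2.79 (SE 0.21, 6.90-fold, adjusted p = 0.001042), called in every alternative, and Nars2 was the only 1 of the 83 genes called in that comparison. In T2M minus Neutrophils 4 of the 83 were called, all lower, where 1.57% of all genes were: Tufm, Rpusd4 (-1.20), Supv3l1 (-1.80; -0.94 and uncalled as the average of its probe sets) and Pprc1 (-1.54). With 1 array left out, the call of Tufm was kept in 9 of 9 fits, that of Supv3l1 in 4, and those of Rpusd4 and Pprc1 in 1 each, and Tufm was not called with array weights or with only the 2 labels.

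Probe sets of a gene were set against each other for the 42 members that had more than 1. Of their 80 other probe sets, 67 had the sign of the kept one in Eosinophils minus Neutrophils (83.8%), 65 in Eosinophils minus Macrophages (81.2%), 57 in T2M minus Neutrophils (71.2%), 56 in T2M minus Eosinophils (70.0%), 55 in T2M minus Macrophages (68.8%) and 52 of the 80 in Neutrophils minus Macrophages. No member had probe sets called in both directions within a comparison. The direction was thus shared by most but not all probe sets. The median difference of the other probe sets was smaller in size than that of the kept ones in all 6 comparisons. For the 4 comparisons of T2M or Eosinophils with Neutrophils or Macrophages it is given above. It was 0.17 against 0.22 in T2M minus Eosinophils and -0.31 against -0.37 in Neutrophils minus Macrophages.

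Replicate arrays of a label differed by a median of 0.16 per member for Macrophages, 0.49 for Eosinophils, 0.39 to 0.58 for T2M and 0.79 for Neutrophils. Part of this spread was shared between labels. How far replicate 1 lay from the mean of its label's other arrays correlated across the 76 members between T2M and Eosinophils. Over the members r was 0.68 and Spearman's rho 0.67, and over all genes r was 0.50. For the other pairs of labels r was between -0.26 and 0.25 over the members. Genes are not independent replicates, so these values describe the arrays. Mrpl44 was 9.56 on T2M replicate 1 against 6.46 and 7.04 on the others, and 7.99 on Eosinophils replicate 1 against 5.17. Mrpl10 went the other way, at 4.76 against 6.85 and 6.22 in T2M and at 6.68 against 7.94 in Eosinophils. The same arrays differed in RNA quality controls: the 3′ minus 5′ difference of the actin probe sets was 0.61 on T2M replicate 1 and 0.54 on Eosinophils replicate 1, and -0.10 to 0.03 on the other 7 arrays. The Gapdh difference was 2.35 to 3.43 on the T2M arrays, 1.09 to 2.41 on the Eosinophils, 1.45 to 2.20 on the Neutrophils and 1.02 to 1.20 on the Macrophages arrays. Without both of these arrays, a choice made after seeing the data, the median T2M minus Macrophages difference of the members was -1.39. Some of the 32 calls above were lost there and others were gained. The part of RNA quality in the other results was not tested.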

How the data were processed

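RNA of 4 sorted lung populations was measured on 9 arrays (T2M n = 3, Eosinophils, Neutrophils and Macrophages n = 2 each), grouped by label. The authors deposited log2 expression values, 1 per probe set and array. The submitters' processing notes name RMA, affy and limma; versions and settings are not given in the sources used here. The table held 45101 probe sets, with 64 controls left out. Platform annotation gave 1 symbol for 34945, several for 932 and none for 9160, and 34741 matched the RefSeq table of GRCm38.p6. A probe set with several symbols names no gene here, which leaves out Mrpl30 and Mrpl53. The table has no detection calls, so the signals of different probe sets are not compared as levels.

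Where a gene had several probe sets, the one whose mean over the arrays was highest was kept. limma 3.58.1 (R 4.3.3; lmFit on label means, eBayes, two-sided, all 9 arrays, 5 residual degrees of freedom) tested 6 contrasts over 18193 genes. A difference is the first label minus the second, and called means a Benjamini-Hochberg adjusted p under 0.05. The script was tested on simulated data. Precision is limited by the number of arrays: the median SE over members was 0.41 for T2M contrasts and 0.44 for the others. The p-values measure the spread between arrays, which is a spread between pools only where each array is a separate pool.

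Named genes were the members with the largest called and uncalled differences, the members with the highest and lowest means (not ranked here), the Mrps18 paralogs and called genes of the related lists. The members and lists were chosen with earlier results of these data known. The alternatives were the mean of all probe sets, every probe set on its own, the lowest 40 percent of genes left out, arrays shifted to a common median, quantile normalization, trend and robust moderation, array weights, only the 2 labels compared, a replicate block, the Macrophages arrays as 1 sample, and each array left out in turn. Leaving out both arrays with an actin difference was added after seeing the data. Promoter windows are RefSeq's.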

Additional observations from a re-analysis of the deposited data

How the results depend on the processing

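The precision is limited by 2 or 3 arrays a label, and signal over background is not given in the table. The direction of the member median held in every alternative, except that Neutrophils minus Macrophages turned to 0.019 without Neutrophils replicate 1. Among single named genes, 908 gene and alternative pairs kept direction and side of the threshold, 277 lost a call, 25 gained one and 8 reversed. The reversals were Mrps9 in T2M minus Macrophages with all probe sets averaged (-0.10), Mrpl39 there without T2M replicate 1 and without both arrays with an actin difference (-0.066 in each; 0.75 without T2M replicate 2), Mrpl41 in T2M minus Neutrophils without Neutrophils replicate 1 (-1.09; 2.47 without replicate 2), and Mrpl44 in T2M minus Neutrophils with array weights (-0.058), without T2M replicate 1 or both actin arrays (-0.48 in each) and without Neutrophils replicate 1 (-0.38; 1.31 without replicate 2). The cause was not tested for any of these changes.

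The shares of all genes called changed between the alternatives. Called lower in T2M minus Macrophages were 10.6% of all genes, 6.54% with quantile normalization and 26.5% with array weights. In the same order, T2M minus Neutrophils had 1.57%, 1.05% and 0.0715%. Eosinophils minus Macrophages had 11.5%, 7.73% and 20.5%, and Eosinophils minus Neutrophils 4.33%, 3.81% and 1.33%. Counts of members called changed as follows. In T2M minus Eosinophils the 1 called higher (1.57% of all genes) became 2 with array weights (3.09%). It became 0 with each probe set on its own (1.21%), the lowest 40 percent left out (2.57%) and a common median (1.22%). The count was also 0 with quantile normalization (2.01%), trend and robust moderation (1.34%) and the replicate block (0.522%). The 1 called lower (2.89% of all genes) became 2 with probe sets averaged (4.07%). It became 0 with quantile normalization (2.72%), only 2 labels (1.59%) and the replicate block (1.46%). In T2M minus Neutrophils the 9 called lower became 4 with each probe set on its own (1.06% of all genes) and 4 with quantile normalization (1.05%). The count was 5 with trend and robust moderation (1.02%). It was 0 with array weights (0.0715%), only 2 labels (where 0 of all genes were called) and the replicate block (0.0715%). In T2M minus Macrophages the 32 became 16 with quantile normalization (6.54% of all genes), 66 with array weights (26.5%) and 18 with the replicate block (6.02%). The median became -0.84 with quantile normalization. In Eosinophils minus Neutrophils the 1 called higher became 0 with array weights, only 2 labels and without both actin arrays, and the 17 called lower became 6, 1 and, with the Macrophages arrays as 1 sample, 11. In Eosinophils minus Macrophages the 36 called lower became 19 with quantile normalization (7.73% of all genes) and 59 with array weights (20.5%), with a median of -1.18 under quantile normalization. The Macrophages arrays as 1 sample, and leaving out both actin arrays, left 1 sample in a label. Counts of members called changed in those fits too, as did the shares of all genes.

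With each array left out in turn, the counts called higher and lower and the median ran over 0 to 2, 0 to 1 and 0.17 to 0.34 for T2M minus Eosinophils, and 0 to 2, 0 to 16 and -1.24 to -0.50 for T2M minus Neutrophils. For T2M minus Macrophages the count called lower ran over 0 to 47 and the median over -1.39 to -1.14. The ranges were 0 to 2, 7 to 27 and -1.53 to -0.68 for Eosinophils minus Neutrophils, 0 to 1, 5 to 45 and -1.69 to -1.50 for Eosinophils minus Macrophages, and 0 to 1, 0 to 13 and -0.78 to 0.019 for Neutrophils minus Macrophages. The labels share replicate numbers but do not say that a number marks a shared pool. Every pair of labels shares only 2 numbers, so the replicate block is given here only. With it 13 members were called lower in Eosinophils minus Neutrophils (3.35% of all genes) and 30 in Eosinophils minus Macrophages (9.48%). A shift to a common median moved the median of all genes in T2M minus Eosinophils from 0.06 to -0.09, and the genes called higher and lower there from 286 and 526 to 222 and 697. In Eosinophils minus Neutrophils it moved them from 645 and 788 to 801 and 614.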
